A study of Mus musculus with 4 samples.

Results

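The genes of mitochondrial and peroxisomal fatty acid oxidation were read out of a transcriptome of the tissue around the mouse femoral artery (FA), 48 h after wire injury or sham operation. They were taken by symbol: 36 named enzymes and transporters, and all symbols that begin with Pex and a digit, which added 16 peroxins. Together these made 52 of the 12661 genes in the table, and none of the named symbols was absent. By known location 20 of the enzymes were placed in mitochondria, 10 in peroxisomes, and 6 in both compartments or in the cytosol. All mice were wild type C57BL/6, female, ovariectomized and 11 weeks old, so that absence of the ovaries was shared by both groups. The injury group had a straight spring wire of 0.38 mm passed into the FA, and the control group had a sham operation. Outer tissue of the artery, mainly perivascular adipose tissue (PVAT), was collected, and 2 libraries a group were prepared with a stranded kit for mRNA, each starting from 480 ng of total RNA. The sources used here do not say how many mice gave each library, so p-values measure the spread between these 4 libraries.

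Fatty acids are activated to acyl-CoA and carried into mitochondria as carnitine esters, and a cycle of dehydrogenation, hydration, dehydrogenation and thiolysis then releases acetyl-CoA and passes electrons to the respiratory chain. Peroxisomes shorten very long and branched chains that mitochondria handle poorly, with a first oxidase step that gives electrons to oxygen. In brown and beige fat, mitochondrial fatty acid oxidation is known as the fuel supply of heat production, and peroxisomes are abundant in brown fat.

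Values are scores as the authors deposited them, signed and log-like, with a base that was not settled. Each gene has a centre of its own, which is not its mean over these 4 libraries, and the samples that set it are not given in the sources used here. A score of 0 is thus neither an absence of RNA nor a midpoint of these groups, a group mean has meaning only beside the other group, scores of different genes cannot be set against each other as levels, and differences are given in score units and not as folds. The read depth behind a score is unknown. Injury and sham libraries lay apart on the first principal component (77.7% of the variance), and the median over all genes lay between -0.0062 and -0.0028 in every library. Sham replicate 1 had higher skeletal muscle scores than the other 3 libraries: the median score of 9 muscle genes was 0.63 and -0.075 in the sham libraries and -0.32 and -0.40 in the injury libraries.

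After injury 6 of the 52 members were higher and 2 were lower with an adjusted p-value under 0.05 (limma, Benjamini-Hochberg adjustment over all 12661 genes), against 3.76% of all genes called higher and 3.67% called lower (7.43% in all). All 6 that rose were mitochondrial: the carnitine transferase *Cpt1b*, the dehydrogenases *Acadvl* and *Hadh*, the thiolases *Hadhb* and *Acaa2*, and the thioesterase *Acot2*. Both that fell were peroxisomal: the transporter *Abcd2* and the lyase *Hacl1*. No peroxin was called. The difference between compartments was not tested, and the share called lower was near that of all genes. At a threshold of 0.1 the count was 17 higher and 3 lower, where 9.21% and 9.09% of all genes passed. Of these 17, 12 were mitochondrial, *Abcd3* and *Phyh* were peroxisomal, *Acot1* and *Mlycd* belonged to both compartments or the cytosol, and *Pex6* was a peroxin, so that 2 peroxisomal enzymes or transporters were higher and 2 lower at this threshold. Calls across the whole table depended on which library was left out. Without sham replicate 1, sham replicate 2 or injury replicate 1, limma called 0, 1 and 284 of the 12661 genes and no member. Members at an unadjusted p under 0.05 were then 14, 24 and 23 of 52, beside 15.5%, 20.2% and 23.7% of all genes. Without injury replicate 2, 1790 of the 12661 genes (14.1%) were called, and 6 members, 4 higher and 2 lower. With the variance of each gene taken alone, none of the 12661 genes was called by limma, and 12 members and 17.5% of all genes had an unadjusted p under 0.05. In bulk tissue, fewer cells of a type and less RNA per cell cannot be told apart, which holds for every difference given here.

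**Figure D1:**
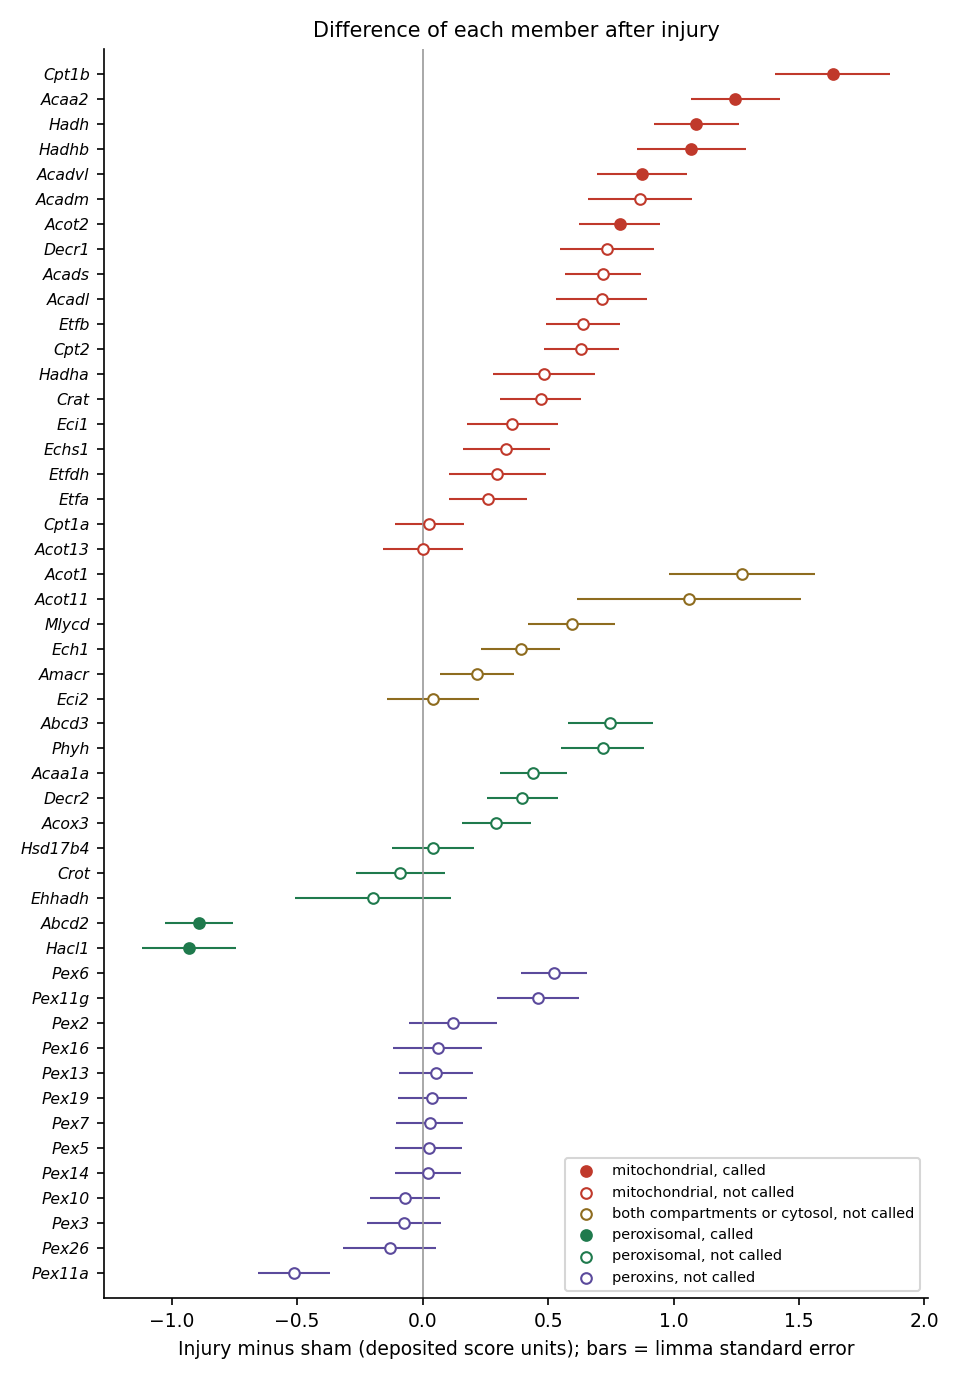
Injury minus sham in deposited score units for 49 of the 52 members, grouped by compartment and ordered by size, with limma standard errors as bars and filled points for genes called at an adjusted p under 0.05. All 20 mitochondrial points lie above 0, with 6 filled, whereas the 10 peroxisomal points run from -0.93 to 0.75 and most peroxins sit near 0.

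The carnitine shuttle was led by *Cpt1b*, the muscle-type carnitine palmitoyltransferase 1, which also serves brown adipocytes. Its scores were 0.59 and 1.22 in the sham libraries and 2.53 and 2.55 in the injury libraries, with the injury libraries 0.016 apart and the sham libraries 0.62 apart. *Cpt1b* (chr15:89246836-89256294 on the minus strand of mm9) rose from 0.91 ± 0.44 (SD, n = 2) after sham operation to 2.54 ± 0.011 (SD, n = 2) after injury, a difference of 1.63 (standard error 0.23, adjusted p = 0.0291 from limma). This was the largest difference among the 52 members, and the score of the lower injury library was above that of the higher sham library by 1.32. Exons of the choline kinase gene *Chkb* on the same strand cover 81.4% of the exonic bases of *Cpt1b*, so reads of the pair may have been shared. *Chkb* itself rose by 0.76 (standard error 0.15, adjusted p = 0.0465 from limma). After quantile normalization *Cpt1b* missed the threshold (adjusted p = 0.0788 from limma). *Cpt1a*, the liver-type form of the same enzyme, had scores of -0.13 and -0.10 in the sham libraries and -0.019 and -0.16 in the injury libraries, and the groups overlapped, with a difference of 0.026 (standard error 0.14, adjusted p = 0.915 from limma). The coding sequences of the 2 forms were 67.4% identical and shared no stretch of 150 bases, the length of a read. *Cpt2*, which turns the carnitine ester back into acyl-CoA on the inner membrane, was at -0.040 and 0.19 in the sham libraries and 0.66 and 0.75 in the injury libraries, with the groups apart but not called (difference 0.63, standard error 0.15, adjusted p = 0.0632 from limma). The carnitine acetyltransferase *Crat*, which exports acetyl groups, was at 0.13 and 0.33 in the sham libraries and 0.58 and 0.82 in the injury libraries (difference 0.47, standard error 0.16, adjusted p = 0.128 from limma). *Crot*, the octanoyltransferase that prepares chains shortened in peroxisomes for transfer to mitochondria, overlapped between groups at -0.21 and 0.17 in the sham libraries and -0.16 and -0.057 in the injury libraries (difference -0.088, standard error 0.18, adjusted p = 0.776 from limma).

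The promoter of *Cpt1a*, whose groups overlapped, is shown beside that of *Acadvl*, a gene of another enzyme that rose. These were picked because both windows hold the hexamer AGGTCA, the unit of nuclear receptor binding motifs (read on both strands, in capitals). No window of *Cpt1b* is shown, so the promoters of the isoforms are not compared. The windows run from 250 bases before to 50 bases after the RefSeq start (GRCm38.p6), *Cpt1a* at chr19:3323051-3323350 on the plus strand and *Acadvl* at chr11:70015379-70015678 on the minus strand, each written 5′ to 3′ along its gene.
*Cpt1a*: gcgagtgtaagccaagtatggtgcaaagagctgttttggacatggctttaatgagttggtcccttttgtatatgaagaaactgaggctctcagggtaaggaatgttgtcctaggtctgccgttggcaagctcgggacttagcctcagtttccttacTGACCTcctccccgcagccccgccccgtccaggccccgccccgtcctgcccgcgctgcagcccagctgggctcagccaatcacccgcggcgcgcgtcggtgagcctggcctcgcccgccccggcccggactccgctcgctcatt
*Acadvl*: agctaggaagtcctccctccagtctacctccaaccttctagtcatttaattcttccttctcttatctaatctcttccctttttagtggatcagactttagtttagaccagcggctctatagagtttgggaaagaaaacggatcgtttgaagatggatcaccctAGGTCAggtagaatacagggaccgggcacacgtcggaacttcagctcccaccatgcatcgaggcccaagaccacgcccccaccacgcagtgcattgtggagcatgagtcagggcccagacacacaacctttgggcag
Each window held 1 copy. Windows were given for 39 of the 52 members (44 windows), and the hexamer was in 6 of them, those of *Phyh*, *Acadm*, *Echs1*, *Pex11g*, *Acadvl* and *Cpt1a*, or 13.6% against 16.3% of all 32851 windows. The direct repeat of AGGTCA with 1 base between its copies, the form bound by PPAR and RXR, was in none of the member windows and in 0.0396% of all, and the estrogen-related receptor motif TCAAGGTCA in none and in 0.423%. Both of these contain the hexamer, so the searches overlap. The NRF1 motif, searched as GCGCA and GCGC with any 1 base between them, was in 5 member windows, those of *Etfdh*, *Abcd3*, *Pex10*, *Etfb* and *Pex11g*, or 11.4% against 4.6% of all. None of the genes called by limma was among these last 5.

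All 4 acyl-CoA dehydrogenases, which catalyse the opening step of each mitochondrial cycle and differ in the chain length they take, had both injury libraries above both sham libraries, an order found in 31.6% of all genes, with the reverse in 30.3%. *Acadvl*, for very long chains (chr11:69823685-69828913 on the minus strand of mm9), was at 0.0089 and 0.42 in the sham libraries and 1.09 and 1.09 in the injury libraries. It rose from 0.22 ± 0.29 (SD, n = 2) after sham operation to 1.09 ± 0.0040 (SD, n = 2) after injury, by 0.87 (standard error 0.18, adjusted p = 0.0498 from limma). The call was close to the threshold and was lost after quantile normalization (adjusted p = 0.0675), with columns scaled to one spread (0.0512), with a robust variance prior (0.0518) and without injury replicate 2 (0.0660), all from limma. Exons of *Dvl2* on the opposite strand cover 42.9% of its exonic bases, and the groups overlapped for *Dvl2* (difference -0.020, standard error 0.15, adjusted p = 0.94 from limma). Whether the counting used strand is not given in the sources used here. *Acadm*, for medium chains, was at -0.15 and 0.38 in the sham libraries and 0.95 and 1.01 in the injury libraries, a difference of 0.87 that was nearly as large but came with a wider sham spread (standard error 0.21, adjusted p = 0.0631 from limma). *Acadl*, for long chains, was at -0.020 and 0.30 in the sham libraries and 0.72 and 0.99 in the injury libraries (difference 0.71, standard error 0.18, adjusted p = 0.0732 from limma). *Acads*, for short chains, was at 0.011 and 0.14 in the sham libraries and 0.69 and 0.90 in the injury libraries (difference 0.72, standard error 0.15, adjusted p = 0.0513 from limma). The differences of the 4 genes thus lay in a narrow band from 0.71 to 0.87, and only *Acadvl* passed the 0.05 threshold.

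Of the 5 genes for the steps that follow, 3 were called higher, beside 3.76% of all genes. *Acaa2*, the mitochondrial 3-ketoacyl-CoA thiolase that splits off acetyl-CoA, was at -0.0032 and 0.40 in the sham libraries and 1.45 and 1.44 in the injury libraries. It rose from 0.20 ± 0.28 (SD, n = 2) after sham operation to 1.44 ± 0.010 (SD, n = 2) after injury, by 1.25 (standard error 0.18, adjusted p = 0.0291 from limma), second in size to *Cpt1b* among the calls. *Hadh*, the hydroxyacyl-CoA dehydrogenase for short and medium chains (chr3:130936337-130975019 on the minus strand of mm9), was at -0.13 and 0.17 in the sham libraries and 1.01 and 1.21 in the injury libraries. It rose from 0.020 ± 0.21 (SD, n = 2) after sham operation to 1.11 ± 0.14 (SD, n = 2) after injury, by 1.09 (standard error 0.17, adjusted p = 0.0314 from limma). Neither gene lost its call after quantile normalization, scaling to one spread or a robust variance prior. Both calls were lost with the variance of each gene taken alone (adjusted p = 0.268 for each from limma). *Echs1*, the short-chain enoyl-CoA hydratase, was at -0.062 and 0.29 in the sham libraries and 0.38 and 0.51 in the injury libraries, above the sham range by a small margin (difference 0.33, standard error 0.17, adjusted p = 0.265 from limma).

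*Hadha* and *Hadhb* encode the alpha and beta chains of the trifunctional protein, which carries out the last 3 steps of the cycle on long chains. The 2 chains assemble into one complex, and the genes lie head to head on chromosome 5, with 85 bases between the mm9 gene records. *Hadhb* (chr5:30481788-30511133 on the plus strand), the thiolase chain, was at -0.093 and 0.48 in the sham libraries and 1.27 and 1.26 in the injury libraries. It rose from 0.19 ± 0.41 (SD, n = 2) after sham operation to 1.27 ± 0.0063 (SD, n = 2) after injury, by 1.07 (standard error 0.22, adjusted p = 0.0484 from limma), and lost its call after quantile normalization (adjusted p = 0.0630), with a robust variance prior (0.0516) and without injury replicate 2 (0.0632), all from limma. *Hadha* (chr5:30444841-30481702 on the minus strand), the hydratase and dehydrogenase chain, was at -0.012 and 0.47 in the sham libraries and 0.63 and 0.80 in the injury libraries, in the same order of groups, but its difference of 0.48 did not pass the threshold (standard error 0.20, adjusted p = 0.183 from limma). The difference between the 2 genes was not tested. Sequence between the 2 starts is shown from the RefSeq window of *Hadhb*, which holds the start of *Hadhb* and not that of *Hadha* (GRCm38.p6, chr5:30155003-30155302 on the plus strand, 5′ to 3′ along *Hadhb*), with capitals for the 228 of its 300 bases that also lie in the window of *Hadha*.
*Hadhb*: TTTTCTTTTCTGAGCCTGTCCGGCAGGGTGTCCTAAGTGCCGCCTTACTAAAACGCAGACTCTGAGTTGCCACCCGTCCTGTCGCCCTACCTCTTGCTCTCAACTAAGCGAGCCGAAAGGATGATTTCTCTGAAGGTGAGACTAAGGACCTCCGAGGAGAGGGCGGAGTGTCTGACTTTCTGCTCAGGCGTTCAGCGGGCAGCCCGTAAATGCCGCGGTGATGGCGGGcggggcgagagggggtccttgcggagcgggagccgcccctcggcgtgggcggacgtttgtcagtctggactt
The RefSeq starts of the 2 genes are 272 bases apart in this build.

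**Figure D2:**
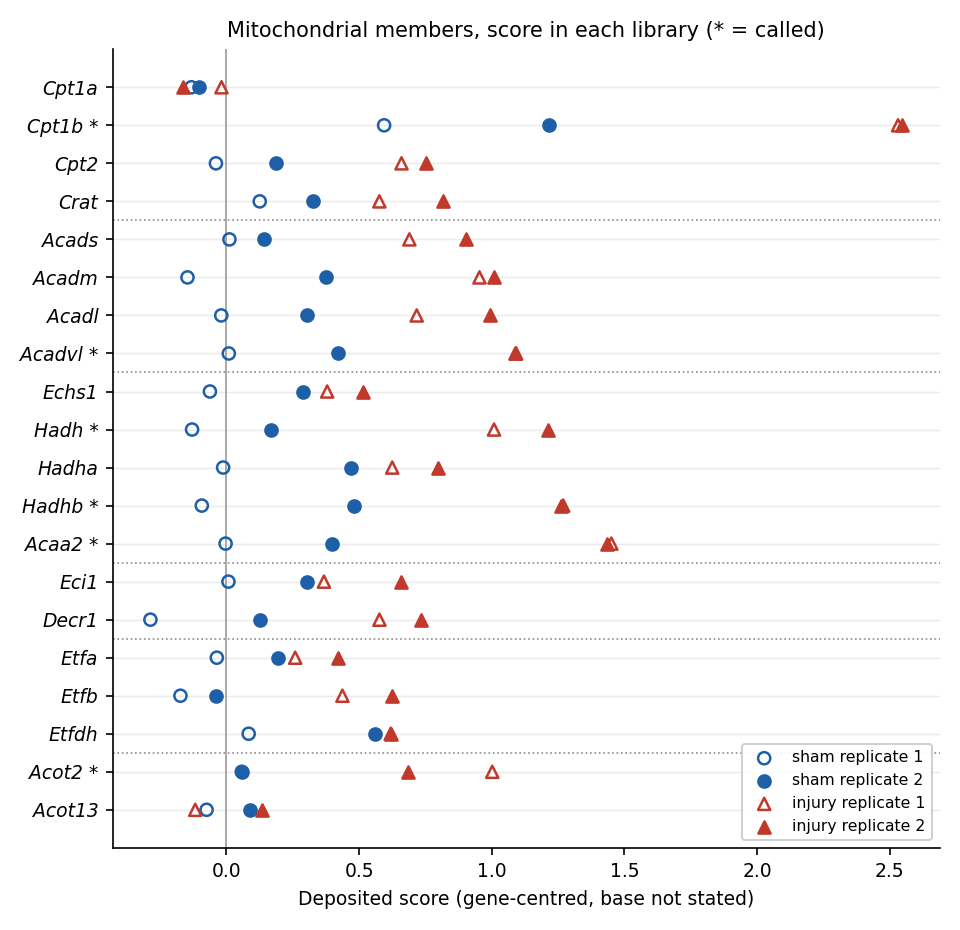
Deposited scores of the 20 mitochondrial members in each library, with sham libraries as circles and injury libraries as triangles, replicate 1 open and replicate 2 filled, asterisks on called genes and dotted lines between roles. In 18 genes both triangles lie to the right of both circles, *Cpt1a* and *Acot13* being the exceptions, and the filled circle is to the right of the open circle in all 20, by 0.00012 in *Acot2*.

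Unsaturated chains need auxiliary enzymes that move or remove double bonds. None of the 5 genes passed the 0.05 threshold, beside 7.43% of all genes. The mitochondrial dienoyl-CoA reductase *Decr1* was at -0.29 and 0.13 in the sham libraries and 0.58 and 0.73 in the injury libraries, the largest difference of this set (0.73, standard error 0.19, adjusted p = 0.0721 from limma). Its peroxisomal counterpart *Decr2* was at -0.10 and 0.043 in the sham libraries and 0.31 and 0.42 in the injury libraries, with groups apart (difference 0.40, standard error 0.14, adjusted p = 0.138 from limma). *Ech1*, a dienoyl-CoA isomerase found in both organelles, was at -0.12 and 0.13 in the sham libraries and 0.32 and 0.47 in the injury libraries (difference 0.39, standard error 0.16, adjusted p = 0.173 from limma). The isomerase *Eci1*, which is mitochondrial, was at 0.0075 and 0.30 in the sham libraries and 0.37 and 0.66 in the injury libraries (difference 0.36, standard error 0.18, adjusted p = 0.254 from limma). *Eci2*, the isomerase with a peroxisomal signal as well, was at -0.021 and 0.028 in the sham libraries and -0.17 and 0.26 in the injury libraries, and its 2 injury libraries lay on either side of the sham libraries (difference 0.041, standard error 0.18, adjusted p = 0.901 from limma).

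Electrons from the dehydrogenases pass through the electron transfer flavoprotein to ubiquinone. Its beta chain *Etfb* was at -0.17 and -0.040 in the sham libraries and 0.44 and 0.62 in the injury libraries (difference 0.64, standard error 0.15, adjusted p = 0.0610 from limma). The alpha chain *Etfa* was at -0.036 and 0.19 in the sham libraries and 0.26 and 0.42 in the injury libraries, with a smaller difference of 0.26 (standard error 0.16, adjusted p = 0.324 from limma). *Etfdh*, the ubiquinone oxidoreductase that takes the electrons, was at 0.084 and 0.56 in the sham libraries and 0.62 and 0.62 in the injury libraries (difference 0.30, standard error 0.19, adjusted p = 0.363 from limma). In all 3 genes the injury libraries were above the sham libraries, for *Etfdh* by 0.058, beside 31.6% of all genes in this order. None was called, beside 7.43% of all genes.

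Acyl-CoA thioesterases release free fatty acid from CoA and so set how much CoA stays bound. *Acot2*, the mitochondrial long-chain form (chr12:85328811-85334823 on the plus strand of mm9), was at 0.058 and 0.058 in the sham libraries and 1.002 and 0.69 in the injury libraries. It rose by 0.79 (standard error 0.16, adjusted p = 0.0498 from limma), with sham libraries that were nearly equal, and a robust variance prior ended the call (limma, 0.0515 after adjustment). *Acot1*, the cytosolic form that lies next to it (chr12:85350448-85358621 on the plus strand of mm9), was at -0.79 and 0.052 in the sham libraries and 0.99 and 0.81 in the injury libraries. The difference, 1.27, was larger than that of *Acot2*, but the sham libraries were 0.84 apart and it was not called (standard error 0.29, adjusted p = 0.0596 from limma). The 2 genes are near copies: their coding sequences matched at 1180 of 1239 aligned bases (95.2%), and 18.8% of the stretches of 150 bases in *Acot1* also occur in *Acot2*. Reads from such stretches could have been split between them, so both values are uncertain. The openings of the coding sequences (GENCODE, NCBIM37) are shown because they hold what separates the mitochondrial from the cytosolic form. Capitals mark the 123 bases of *Acot2* that have no partner in *Acot1*, where the mitochondrial targeting signal is encoded, and the lower-case bases follow in the 2 genes from the same aligned position.
*Acot1*: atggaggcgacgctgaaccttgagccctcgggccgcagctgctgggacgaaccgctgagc
*Acot2*: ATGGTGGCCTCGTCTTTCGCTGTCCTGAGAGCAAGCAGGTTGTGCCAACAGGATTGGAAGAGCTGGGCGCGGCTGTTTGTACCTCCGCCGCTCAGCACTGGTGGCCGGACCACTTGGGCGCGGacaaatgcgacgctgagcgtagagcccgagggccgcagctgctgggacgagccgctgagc
*Acot11*, a thioesterase known from brown fat and induced there by cold, was at 0.076 and 1.16 in the sham libraries and 2.13 and 1.23 in the injury libraries. Sham replicate 2 and injury replicate 2 were only 0.067 apart, and the difference of 1.06 was not called (standard error 0.45, adjusted p = 0.186 from limma). Exons of *Fam151a* on the opposite strand cover 20.8% of the exonic bases of *Acot11*, and *Fam151a* ran in parallel at 0.011 and 0.97 in the sham libraries and 2.01 and 1.17 in the injury libraries. *Acot13*, a small mitochondrial thioesterase, was at -0.075 and 0.089 in the sham libraries and -0.12 and 0.13 in the injury libraries, with a difference of 0.00071 (standard error 0.16, adjusted p = 0.999 from limma). *Mlycd*, the malonyl-CoA decarboxylase that removes the inhibitor of carnitine palmitoyltransferase 1, was at -0.15 and 0.18 in the sham libraries and 0.52 and 0.69 in the injury libraries, with groups apart (difference 0.59, standard error 0.17, adjusted p = 0.0924 from limma).

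Import of acyl-CoA into peroxisomes was represented by a pair of related transporters whose groups lay in opposite orders. *Abcd2*, a transporter subunit of the peroxisomal membrane for very long and polyunsaturated chains (chr15:90976315-91022238 on the minus strand of mm9), was at 0.45 and 0.52 in the sham libraries and -0.45 and -0.36 in the injury libraries. It fell from 0.49 ± 0.047 (SD, n = 2) after sham operation to -0.41 ± 0.069 (SD, n = 2) after injury, a difference of -0.89 (standard error 0.14, adjusted p = 0.0308 from limma). *Abcd2* kept its call after quantile normalization, scaling to one spread and a robust variance prior. The call was lost with the variance of each gene taken alone (adjusted p = 0.252 from limma). With 1 library left out the difference ran from -0.94 to -0.84. *Abcd3*, the related subunit PMP70, which takes long and branched chains and bile acid precursors, was at -0.094 and 0.26 in the sham libraries and 0.87 and 0.80 in the injury libraries, in the opposite order of groups. A difference of 0.75 was not called (standard error 0.17, adjusted p = 0.0589 from limma), and the difference between the 2 transporters was not tested.

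Peroxisomal beta-oxidation was represented by 4 genes, none of which was called, beside 7.43% of all genes called. *Acox3*, an acyl-CoA oxidase for branched chains, was at -0.28 and -0.15 in the sham libraries and 0.049 and 0.11 in the injury libraries (difference 0.29, standard error 0.14, adjusted p = 0.222 from limma). The thiolase *Acaa1a*, which closes the peroxisomal cycle, was at -0.12 and -0.039 in the sham libraries and 0.33 and 0.39 in the injury libraries, with groups apart (difference 0.44, standard error 0.13, adjusted p = 0.102 from limma). Its copy *Acaa1b* has 96.5% of the coding bases in common, so reads may have been split here as well, and *Acaa1b* had a difference of 0.62 (standard error 0.24, adjusted p = 0.164 from limma). The bifunctional enzymes of the middle steps overlapped between groups. *Hsd17b4*, which takes branched chains and bile acid precursors, was at -0.081 and 0.21 in the sham libraries and 0.042 and 0.17 in the injury libraries (difference 0.041, standard error 0.16, adjusted p = 0.888 from limma). *Ehhadh*, the other bifunctional enzyme, was at 0.51 and 0.63 in the sham libraries and -0.094 and 0.83 in the injury libraries, so that the injury libraries were 0.93 apart and enclosed both sham libraries (difference -0.20, standard error 0.31, adjusted p = 0.714 from limma). Mitochondrial *Acaa2*, which catalyses the same reaction as *Acaa1a*, rose by 1.25, beside 0.44 for *Acaa1a*.

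Alpha-oxidation shortens chains with a methyl branch, such as phytanic acid, by 1 carbon. Its opening enzyme and its cleaving enzyme lay in opposite orders. *Phyh*, the phytanoyl-CoA hydroxylase, was at -0.20 and 0.13 in the sham libraries and 0.65 and 0.71 in the injury libraries and was not called (difference 0.72, standard error 0.17, adjusted p = 0.0607 from limma). *Hacl1*, the lyase that cleaves the hydroxylated product (chr14:32366091-32454472 on the minus strand of mm9), was at 0.12 and 0.23 in the sham libraries and -0.97 and -0.54 in the injury libraries. It fell from 0.18 ± 0.076 (SD, n = 2) after sham operation to -0.75 ± 0.31 (SD, n = 2) after injury, by 0.93 in score units (standard error 0.19, adjusted p = 0.0483 from limma), a call that a robust variance prior ended (0.0509 by limma after adjustment). *Amacr*, the racemase that makes methyl-branched chains fit for beta-oxidation in either organelle, was at -0.031 and 0.17 in the sham libraries and 0.23 and 0.34 in the injury libraries (difference 0.22, standard error 0.15, adjusted p = 0.381 from limma).

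The 16 peroxins build peroxisomes, import their proteins and divide them. None was called by limma, beside 7.43% of all genes. An unadjusted p under 0.05 was reached by 3 of 16, beside 29.5% of all genes, and the median difference was 0.026. *Pex6*, an ATPase that recycles the import receptor, had the highest difference, 0.53 (standard error 0.13, adjusted p = 0.0706 from limma), at 0.061 and 0.11 in the sham libraries and 0.60 and 0.63 in the injury libraries. *Pex26*, its membrane anchor, overlapped between groups at 0.010 and 0.44 in the sham libraries and 0.049 and 0.14 in the injury libraries (difference -0.13, standard error 0.19, adjusted p = 0.683 from limma). Proteins of the Pex11 type shape the membrane for division. *Pex11a*, known as the inducible form, was at 0.70 and 0.58 in the sham libraries and 0.041 and 0.21 in the injury libraries, both injury libraries below both sham libraries (difference -0.51, standard error 0.14, adjusted p = 0.0887 from limma). *Pex11g* was at -0.43 and -0.16 in the sham libraries and 0.062 and 0.26 in the injury libraries, in the opposite order (difference 0.46, standard error 0.16, adjusted p = 0.14 from limma).

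A further 9 peroxins overlapped between groups, with differences between -0.075 and 0.12. The import receptors *Pex5* and *Pex7* had differences of 0.024 and 0.028. Docking and translocation were represented by *Pex13* and *Pex14*, at 0.055 and 0.021. The ubiquitin ligase subunits *Pex2* and *Pex10* gave 0.12 and -0.070. Membrane protein insertion by *Pex3*, *Pex16* and *Pex19* gave -0.075, 0.061 and 0.038. Adjusted p-values of these 9 genes from limma ran from 0.687 to 0.928, with standard errors between 0.13 and 0.18.

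**Figure D3:**
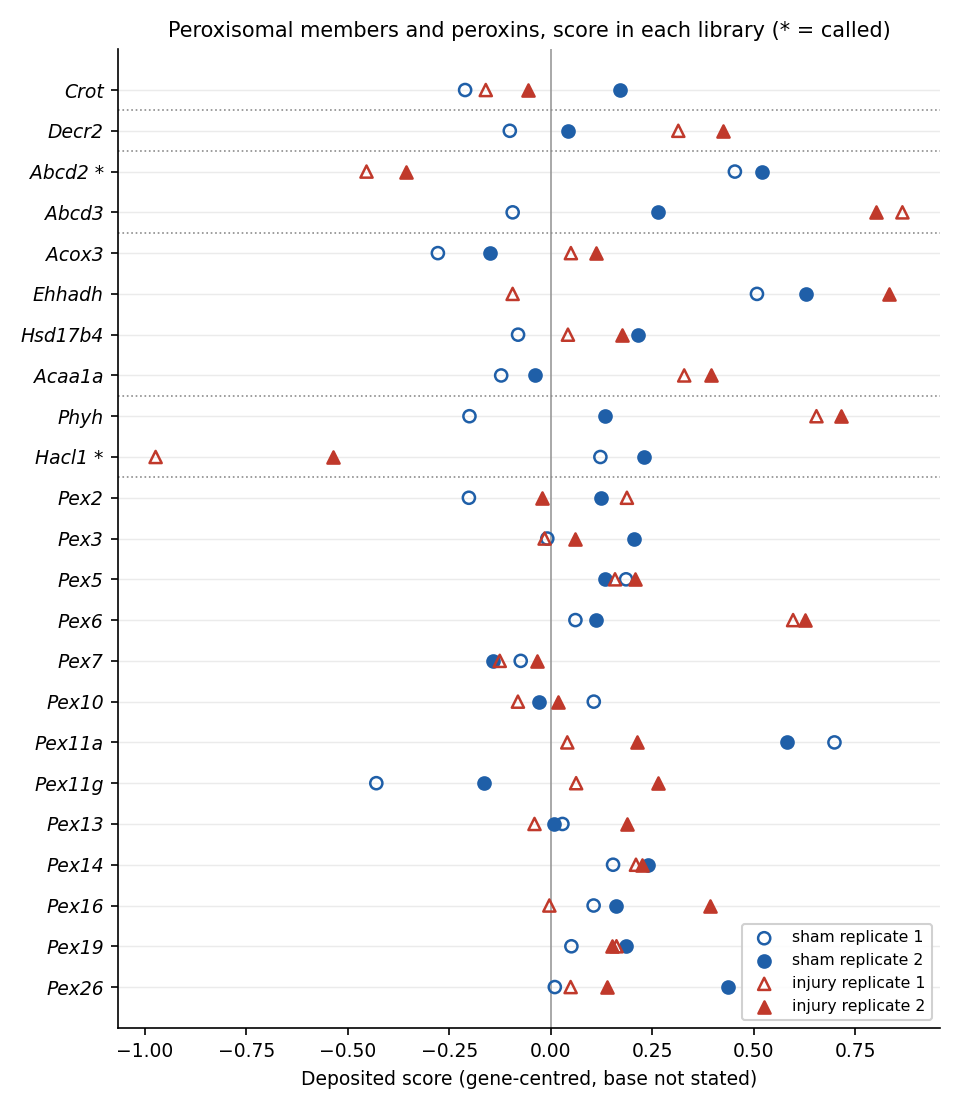
Deposited scores of the 10 peroxisomal members and, below the last dotted line, 13 of the 16 peroxins in each library, with sham libraries as circles and injury libraries as triangles. *Abcd2* and *Hacl1*, marked with asterisks, have both triangles to the left of both circles. In 10 of these 13 peroxins circles and triangles overlap, beside an overlap in 4827 of all 12661 genes.

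By compartment, all 20 mitochondrial members had a difference above 0 and 18 had both injury libraries above both sham libraries. That order was found in 31.6% of all genes, and the reverse in 30.3%. The median score of the mitochondrial members was -0.028 and 0.30 in the sham libraries and 0.64 and 0.78 in the injury libraries, and the median difference was 0.68, beside 0.0085 over all genes. Among the 10 peroxisomal members 5 had the injury libraries above and 2 below the sham libraries, with a median difference of 0.17. The 6 members of both compartments or the cytosol had 5 above and a median of 0.49. Of the peroxins 2 were above and 1 was below. Leaving out 1 library at a time moved the mitochondrial median between 0.54 and 0.77, the peroxisomal one between 0.062 and 0.30 and that of the peroxins between -0.075 and 0.061. These medians describe members that were chosen with earlier results known and were given no test.

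**Figure D4:**
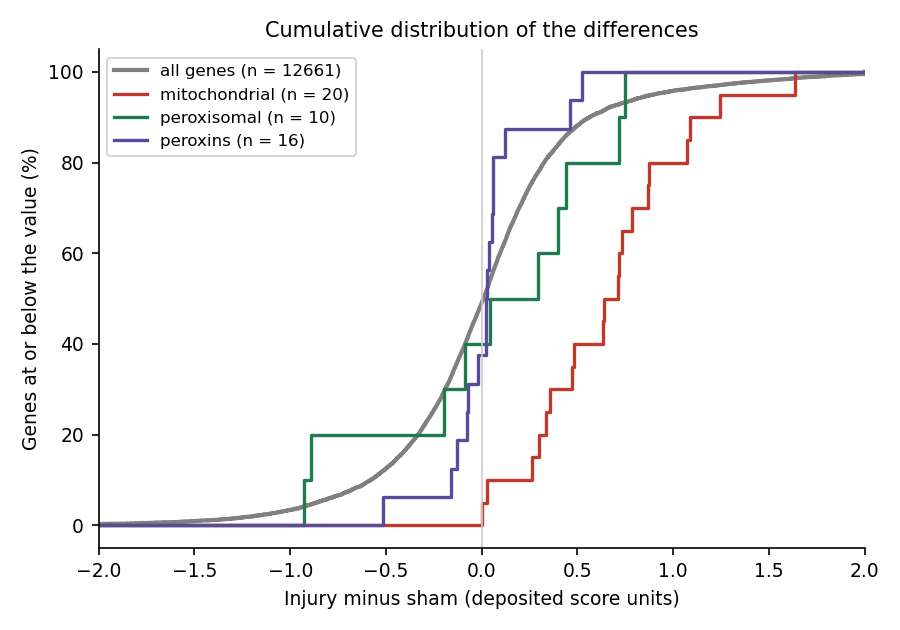
Cumulative share of genes (%) by injury minus sham in deposited score units, for all 12661 genes in grey and for the 20 mitochondrial members, the 10 peroxisomal members and the 16 peroxins in colour, with values beyond the axis drawn at its ends. The mitochondrial curve lies to the right of the grey curve, with medians of 0.68 and 0.0085, and the peroxin curve crosses it near 0.

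The sham libraries were not alike for these genes. Sham replicate 2 was above sham replicate 1 in 36 of the 36 enzymes and transporters, against 48.4% of all genes, and in 10 of the 16 peroxins. This order was also that of 19 of 20 genes of mitochondrial content (95%) and of 15 of 16 further mitochondrial genes of fatty acid oxidation (93.8%). The median gap was 0.31 for the mitochondrial members and 0.14 for the peroxisomal members. In the injury group replicate 2 was above replicate 1 in 15 of the 20 mitochondrial members, by a median of 0.14. The distance between the groups was wider than the larger of the 2 gaps within groups in 13 of the 20 mitochondrial members (65%) and 7 of the 10 peroxisomal members (70%), against 28.1% of all genes. In the peroxins this held for 2 of 16 genes (12.5%), and in the members of both compartments or the cytosol for 1 of 6 (16.7%).

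Other genes of the pathways were described from lists of textbook members. Of 16 further mitochondrial genes 1 was called, beside 7.43% of all genes. It was the mitochondrial acetyl-CoA synthetase *Acss1*, which rose by 1.47 (standard error 0.15, adjusted p = 0.0285 from limma). The lowest was *Acsl1*, an acyl-CoA synthetase of the outer membrane, with a difference of -0.46 (standard error 0.15, adjusted p = 0.122 from limma). The median of this list was 0.082, lower than that of the 20 mitochondrial members. Of 32 further peroxisomal genes none was called by limma, beside 7.43% of all genes. Of these 32, 6 had an unadjusted p under 0.05, beside 29.5% of all genes, and the median of this list was 0.13. Its ends were the peroxiredoxin *Prdx5* (0.74, standard error 0.16, adjusted p = 0.0545 from limma) and catalase *Cat* (-0.59, standard error 0.28, adjusted p = 0.22 from limma). Among 17 regulators of fatty acid oxidation 2 rose and 1 fell, beside 3.76% of all genes called higher and 3.67% called lower. The nuclear receptor *Esrra*, known to drive mitochondrial genes, was at -0.35 and -0.064 in the sham libraries and 0.84 and 0.68 in the injury libraries and rose by 0.97 (standard error 0.16, adjusted p = 0.0346 from limma). *Acacb*, the acetyl-CoA carboxylase whose malonyl-CoA restrains carnitine palmitoyltransferase 1, was at 0.39 and 0.56 in the sham libraries and 1.25 and 1.30 in the injury libraries and rose by 0.80 (standard error 0.14, adjusted p = 0.0371 from limma). The corepressor *Nrip1*, known to hold down oxidative genes in fat, was at 0.86 and 0.75 in the sham libraries and -0.50 and -0.16 in the injury libraries and fell by 1.14 (standard error 0.17, adjusted p = 0.0303 from limma). The highest difference in the list, that of the pyruvate dehydrogenase kinase *Pdk4* (1.25), was not called (standard error 0.43, adjusted p = 0.132 from limma).

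Genes that mark mitochondria and cell types were called as well, and their part in the differences above was not tested. Of 20 genes for general mitochondrial content 19 had both injury libraries above both sham libraries, beside 31.6% of all genes. Among the 4 called higher, beside 3.76% of all genes, were *Cs* (0.74), *Hspd1* (0.86) and *Ogdh* (0.998), while the outer membrane receptor *Tomm20* was below (-0.26, adjusted p = 0.268 from limma). *Sdha* (0.54), *Sdhb* (0.57) and *Ndufs1* (0.41), subunits of the respiratory chain, were not called. The median score of the 20 genes was -0.062 and 0.16 in the sham libraries and 0.52 and 0.57 in the injury libraries, a median difference of 0.51 beside 0.68 for the mitochondrial members. Brown adipocyte markers, 12 in the table, had 6 called higher, beside 3.76% of all genes. Among these 6 were *Cidea* (2.15), *Cox8b* (0.78) and *Cox7a1* (0.91), and the list had a median of 0.60 and 0.79 in the sham libraries and 1.62 and 1.43 in the injury libraries. *Ucp1* had a difference of 1.55 and was not called (adjusted p = 0.164 from limma). In the same list *Prdm16* had both injury libraries below both sham libraries (-0.45), *Ebf2* had a difference of -0.34 and *Ppargc1a* overlapped (0.36), none of them called. All 13 markers of adipocytes in general were in the table, though centred scores do not show how abundant they were, and they had a median of 0.22 and 0.33 in the sham libraries and -0.12 and 0.32 in the injury libraries. Of these *Plin1* fell by 0.74 (adjusted p = 0.0444 from limma), while *Adipoq* (-0.80), *Cidec* (-0.29) and *Lpl* (0.65) were not called.

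Skeletal muscle, which also uses *Cpt1b*, was followed by 9 genes. None was called by limma, beside 7.43% of all genes, and 5 had an unadjusted p under 0.05, beside 29.5% of all genes. Both injury libraries lay below both sham libraries in 5 genes, beside 30.3% of all genes, and above them in *Pvalb*, beside 31.6%. The median difference was -0.74, with *Acta1* at -0.67, *Ckm* at -0.74, *Mylpf* at -1.04 and *Tnnt3* at -0.77. In 9 of 9 muscle genes sham replicate 1 was above sham replicate 2, the reverse of the order of the enzymes. Beside the counts of calls that follow, 3.76% of all genes were called higher and 3.67% lower. Macrophage markers, 12 in the table, had 6 called higher (*Csf1r* 1.33 and *Itgam* 1.61 among them, *Adgre1* 1.08 and *Cd68* 1.21, neither called), while *Cd163* was below the sham libraries (-0.81) and *Mertk* overlapped (0.14), neither called. Neutrophil markers had 2 of 7 called higher, among them *Retnlg* (1.83), with a median difference of 1.86, and the median score was -1.34 and -0.97 in the sham libraries and 1.22 and 0.18 in the injury libraries, lower in injury replicate 2 than in replicate 1 in 7 of 7 genes. *S100a8* (1.86), *S100a9* (1.88) and *Csf3r* (2.09) were not called. Endothelial markers had 3 of 10 called lower (median -0.71), with *Pecam1* (-1.04) called and *Cdh5* (-0.46), *Kdr* (-0.20) and *Tek* (-0.73) not. Smooth muscle markers had 4 of 8 called lower (median -2.10), namely *Acta2* (-2.18), *Myh11* (-2.52), *Tagln* (-2.12) and *Cnn1* (-2.36).

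**Figure D5:**
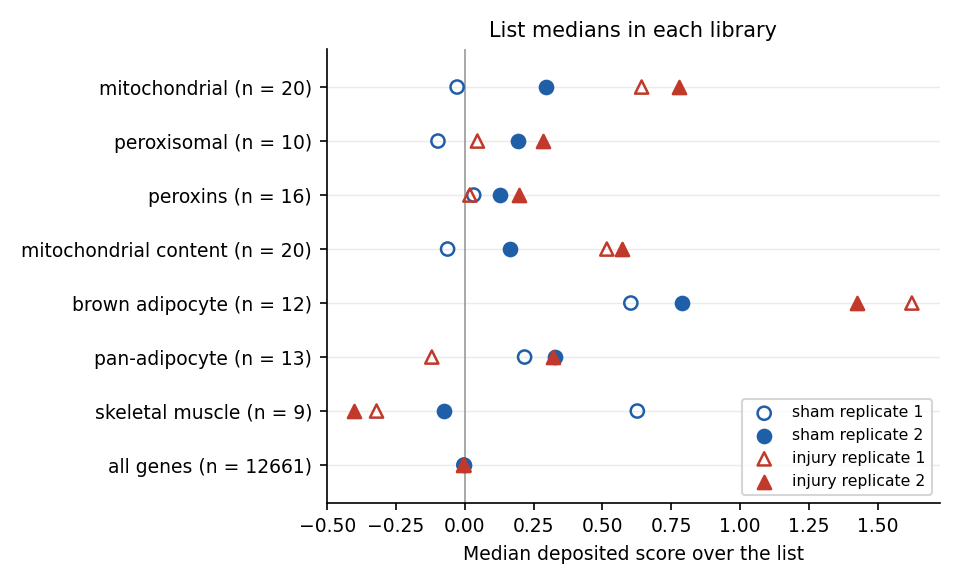
Median deposited score of each list in each library, with sham libraries as circles and injury libraries as triangles, replicate 1 open and replicate 2 filled. The mitochondrial members, the genes of mitochondrial content and the brown adipocyte markers have both triangles to the right of both circles, the skeletal muscle genes have both to the left, and the peroxins and all genes stay near 0.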

How the data were processed

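RNA was measured in 4 libraries, 2 per group as labelled. By the paper's methods and the submitters' processing notes, the authors ran FastQC 0.11.8, cutadapt 1.18 and Trimmomatic 0.39 on the reads, mapped them to mm9 (STAR 2.6.0a), and used featureCounts and DESeq2 1.28.0. The deposited values are signed scores for 12661 genes, and the step that made them is not given in the sources used here. Groups were compared with limma 3.58.1 in R 4.3.3 (lmFit and eBayes, group as the only term, no filter), tested on simulated data beforehand, with Benjamini-Hochberg adjustment over all genes and a threshold of 0.05. Depth is unknown, so precision rests on the spread of 2 libraries per group. The members, their roles and compartments, the other lists and the tests were chosen with earlier results of these data known. All members are named except some whose values are not reported here, with, from each pathway list, the called genes and those with the highest and lowest difference, called or not, and, from each marker list, the first 4 in the table. Other genes of these lists were named after their values were seen. Alternatives were other scalings, variance priors, a replicate block, a threshold of 0.1, identical genes counted once, and each library left out. Coordinates are from GENCODE for NCBIM37 (mm9), matched for 50 of the 52 symbols, and promoters from RefSeq for GRCm38.p6. Python 3.11.15, pandas 2.3.3, numpy 2.4.6, Biopython 1.88 and matplotlib 3.10.9 were used.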

Additional observations from a re-analysis of the deposited data

How the results depend on the processing

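Of 941 genes called, the count was 2317 at a threshold of 0.1, 0 with the unmoderated variance of each gene (2218 at an unadjusted p under 0.05), and between 0 and 1790 when 1 library was left out. Of the 8 members called (6 higher, 2 lower), 5 were called after quantile normalization (3 higher, with 1061 genes or 8.38% called in all), 4 with a robust variance prior (3 higher, 1 lower, with 861 genes or 6.8% in all), 20 at a threshold of 0.1 (17 higher), and 0 with unmoderated variance (0 higher and 0 lower, 12 at an unadjusted p under 0.05). Leaving out 1 library gave between 0 and 6 calls (0 to 4 higher, 0 to 2 lower). A fit left with 1 library in a group assumes that this library varies like the other group. With columns scaled to one spread 8 were called, 7 of them shared with the main result, with 1140 genes or 9% in all. With columns centred on their median or identical genes counted once, all 52 members stayed on their side of the threshold in their direction. With the replicate number as a block, 684 genes (5.4%) and 4 members were called (3 higher and 1 lower: *Cpt1b*, *Acaa2*, *Hadh* and *Abcd2*), and the other 4 missed the threshold (*Hadhb* 0.0533, *Acadvl* 0.0624, *Acot2* 0.0666, *Hacl1* 0.0516, adjusted p from limma), and the numbers are not known to pair the samples (correlation of deviations -0.094 over genes).

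Differences that changed sign when a library was left out belonged to members with no call, and their ranges over the 4 fits were -0.046 to 0.10 for *Cpt1a*, -0.28 to 0.10 for *Crot*, -0.17 to 0.26 for *Eci2*, -0.12 to 0.13 for *Acot13*, -0.66 to 0.27 for *Ehhadh*, -0.11 to 0.19 for *Hsd17b4*, -0.041 to 0.28 for *Pex2*, -0.18 to 0.031 for *Pex3*, -0.0027 to 0.050 for *Pex5*, -0.018 to 0.074 for *Pex7*, -0.059 to 0.17 for *Pex13*, -0.022 to 0.064 for *Pex14*, -0.14 to 0.26 for *Pex16*, -0.029 to 0.11 for *Pex19* and -0.34 to 0.083 for *Pex26*. Causes of these changes were not tested. Depth and signal over background are unknown for scores, so no limit of detection could be given.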
